A study of Homo sapiens with 4 samples.

Results

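Nucleolar and ribosome assembly genes were followed in A549 cells, a human lung adenocarcinoma line, after overexpression of let-7a-3, which encodes a let-7a microRNA. The genes were chosen by symbol, as the proteins and enzymes of ribosome production named by a fixed pattern (NOP, UTP, RRP, NOL, RPP and POP series, RNA polymerase I subunits and others such as FBL, DKC1 and NPM1). The pattern found 68 of 12483 genes and 94 of the 20976 probes that carry 1 gene symbol. All probes are cDNA clones spotted on a two-colour array. The 4 arrays paired 4 A549 cultures transfected with let-7a-3 with 4 cultures of the parental A549 line, and both kinds were grown in DMEM with FCS and given no further treatment. Their RNA was amplified before labelling. The dyes were exchanged, so that arrays 1 and 3 carried 1 orientation and arrays 2 and 4 the other. The labels do not say whether the transfected cultures came from 1 clone or several. With a parental control, an effect of transfection itself cannot be told apart from one of let-7a-3.

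Every value below is a log ratio as deposited. Neither its base nor its numerator is stated, so no fold is printed and it is not known which culture a negative value stands for. With the sign turned, every negative value would be positive. Because it is also not stated whether the arrays had been turned to 1 direction before deposit, 2 components were fitted for each gene. The shared component is the part common to all 4 arrays, and it is the let-7a-3 effect if the arrays had been turned. The alternating component changes sign with the dye orientation, carries the sign of arrays 1 and 3, and is the let-7a-3 effect if they had not. A gene is called where limma's adjusted p, taken over all 12483 genes, lies below 0.05. In bulk RNA, fewer cells of a type and less RNA per cell cannot be told apart. The table holds ratios and no levels, so A549 markers could not be checked for presence. Of 4 epithelial markers measured KRT8 was called in the shared component (0.39), where 3.04% of all genes were, and 2 were negative. Of 4 fibroblast markers none was called, 2 were negative, and 1 had an unadjusted p under 0.05 in limma.

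Ribosomes are built in the nucleolus. RNA polymerase I transcribes a long precursor there, small nucleolar ribonucleoproteins (snoRNPs) modify it, and large complexes fold and cut it into the RNAs of the small and the large subunit. RNase P and the related RNase MRP are RNA enzymes that trim transfer RNA and ribosomal RNA precursors. Ribosome production follows cell growth and is a textbook target of the transcription factor MYC, which let-7 is known to repress. Mature let-7a pairs with its targets mainly through the seed, bases 2 to 8, shown in capitals in the RefSeq sequence (GRCh38.p14, chr22:46112752-46112773, plus strand), because it is the microRNA whose gene was transfected.
hsa-let-7a-5p: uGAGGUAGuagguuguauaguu

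In the shared component 7 of the 68 genes were called, and all 7 were negative. They were TSR1, UTP6, RRS1, NOP56, RPP40, NIFK and REXO4, with log ratios between -0.31 and -0.21. That is 10.3% of the genes, where 3.04% of all genes were called in either direction and 1.41% were called negative. The genes were chosen with earlier results of these data known, so these shares are a description and no independent support. None of the 68 was called positive, against 1.63% of all genes. With no adjustment, at limma p under 0.05, 13 were negative (19.1%, against 6.99% of all genes) and 2 positive (2.94%, against 7.61%). The called genes were spread over assembly of both subunits, snoRNPs and RNase P. None of the 9 genes of ribosomal RNA transcription was called in this component. With 3.04% of all genes called, 9 genes are too few to show a difference. The other 61 genes lay between -0.22 and 0.14 and did not pass.

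**Figure D1:**
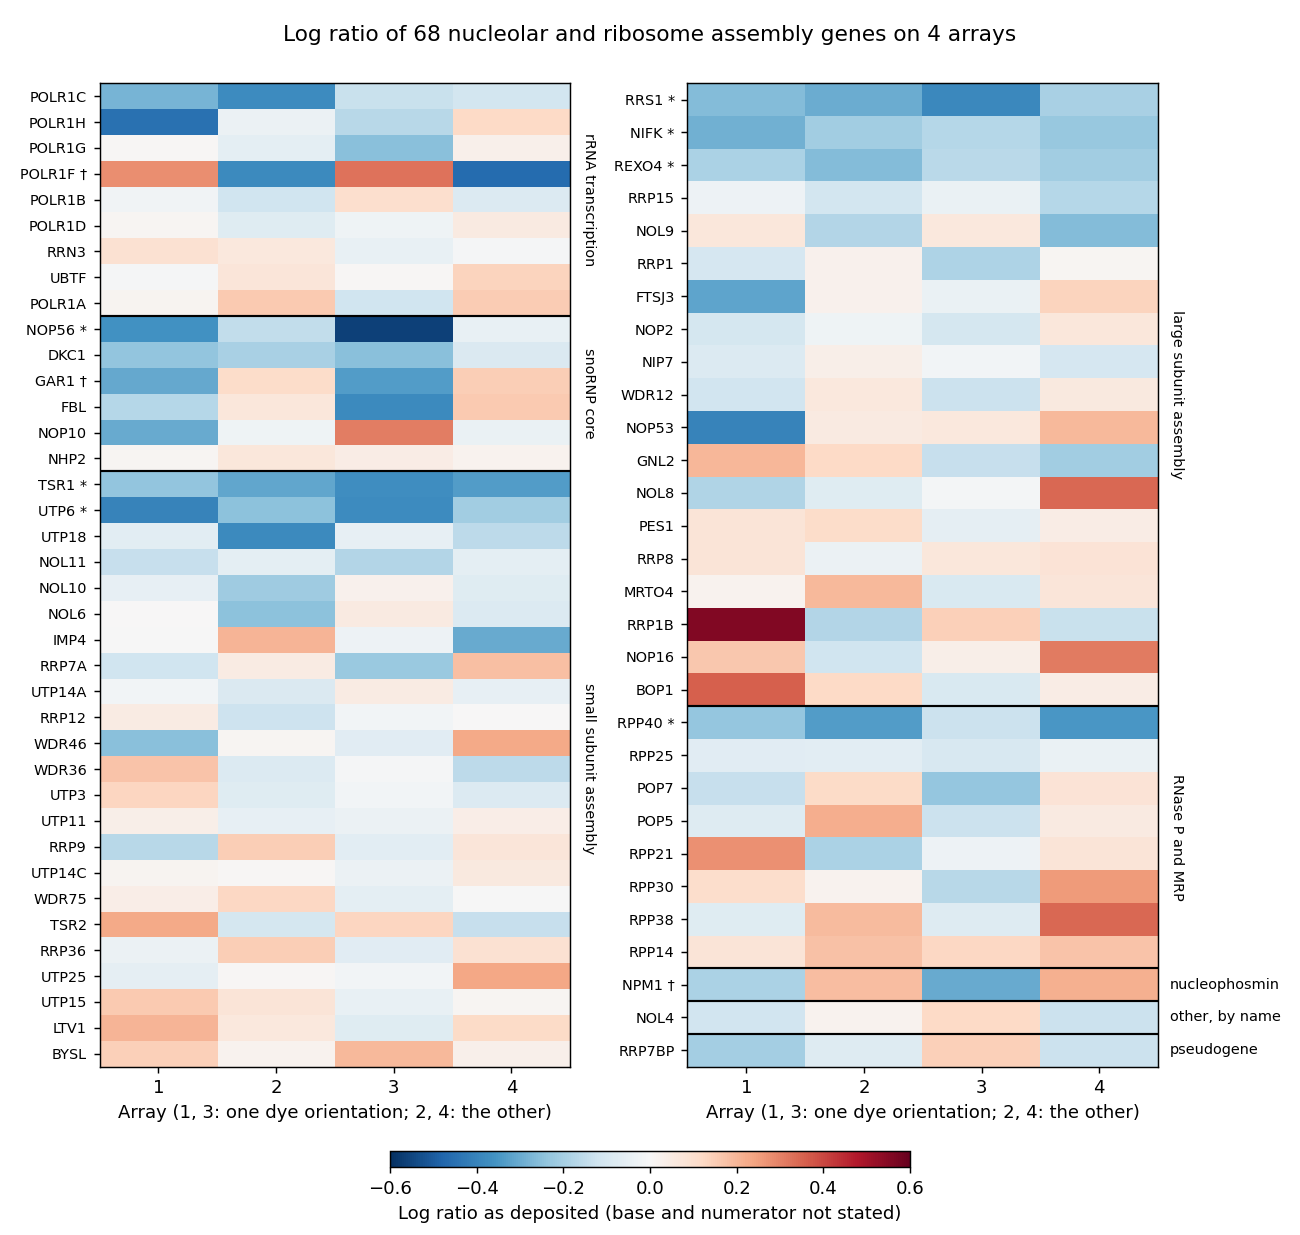
Log ratio of each of the 68 genes (rows, grouped by role and ordered by the mean) on arrays 1 to 4 (columns), on a colour scale from -0.6 to 0.6. An asterisk marks the 7 genes called in the shared component, which are negative on all arrays, and a dagger the 3 called in the alternating component, which change sign between arrays 1 and 3 and arrays 2 and 4.

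The genes as a whole lay slightly below the rest of the array. Their median in the shared component was -0.023, against 0.0069 for all genes, and 44 of 68 were negative (64.7%), against 45.8% of all genes. Negative values on all 4 arrays were found for 13 genes (19.1%, against 6.94% of all genes), namely the 7 called ones with DKC1, NOL11, POLR1C, RPP25, RRP15 and UTP18, and positive values on all 4 for RPP14, BYSL and NHP2 (4.41%, against 8.84%). These signs are of means over the clones of a gene, and neither of the 2 NHP2 clones was itself positive on every array. The shift was not equal on the arrays. On array 1 the median of the 68 genes was -0.043, against 0.0031 for all genes. On array 2 it was -0.026, against 0.015, and on array 3 it was -0.052, against 0.00041. On array 4 it was 0.017, against 0.011. Thus 40, 35, 50 and 31 of the 68 genes were negative on arrays 1, 2, 3 and 4, and on array 4 that share (45.6%) was close to that of all genes (46.6%).

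**Figure D2:**
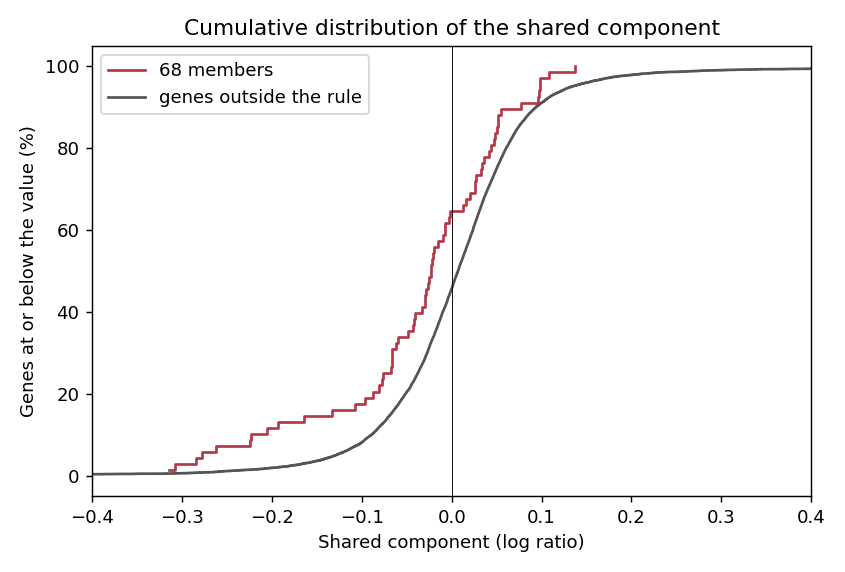
Cumulative share of genes (y axis, percent) at or below each value of the shared component (x axis, log ratio), for the 68 members and for the 12415 genes outside the rule. The curve of the members lies to the left on the negative side, and 64.7% of the members lie below 0, against 45.7% of the other genes.

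Among the 23 genes of small subunit assembly, 2 were called, both negative. TSR1, a GTPase-like factor of late small subunit precursors, stood at -0.24, -0.31, -0.37 and -0.34 on arrays 1 to 4. Its mean was -0.31 ± 0.056 (SD, n = 4; limma adjusted p = 0.00717), so the arrays lay close together whatever their dye orientation. UTP6, a component of the processome that assembles on the young transcript, stood at -0.40, -0.24, -0.38 and -0.21, with a mean of -0.31 ± 0.096 (adjusted p = 0.00547). All 4 arrays were again negative, with arrays 1 and 3 lower than arrays 2 and 4. These 2 calls were kept under all 12 alternative settings, and TSR1 ranked 69th and UTP6 75th from the lowest of all 12483 genes. UTP18, a processome partner of UTP6, was at -0.065, -0.38, -0.048 and -0.16, and its mean of -0.16 did not pass (adjusted p = 0.146). NOL11, which links the processome to transcription, was at -0.11 with all arrays negative (adjusted p = 0.25). At the other end BYSL, a factor of late small subunit precursors, was at 0.099 (adjusted p = 0.299), and LTV1, which acts at export of the small subunit precursor, at 0.077 (adjusted p = 0.563). NOL10 (-0.077), NOL6 (-0.068), IMP4 (-0.033) and RRP7A (-0.029), all of early small subunit precursors, were negative without passing. UTP14A, RRP12, WDR46 and WDR36 lay between -0.026 and -0.019, and UTP3, UTP11 and RRP9 between -0.0092 and -0.0022. On the positive side UTP14C, WDR75, TSR2, RRP36, UTP25 and UTP15 lay between 0.012 and 0.050. IMP4 shows how far arrays could differ, at -0.0027, 0.20, -0.032 and -0.30. The median of the 23 was -0.019, and 15 were negative and 8 positive.

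Among the 19 genes of large subunit assembly, 3 were called, all negative. RRS1, which brings a small ribosomal RNA into the large subunit precursor, stood at -0.26, -0.30, -0.39 and -0.19, with a mean of -0.28 ± 0.080 (SD, n = 4; adjusted p = 0.0141). NIFK, a nucleolar protein that binds the proliferation antigen MKI67, stood at -0.29, -0.21, -0.17 and -0.23, with a mean of -0.22 ± 0.049 (adjusted p = 0.0303). REXO4, a predicted exonuclease whose yeast relative takes part in cutting the ribosomal RNA precursor, stood at -0.19, -0.26, -0.16 and -0.21, with a mean of -0.21 ± 0.042 (adjusted p = 0.0346). All 3 genes were negative on every array. The dye orientations overlapped in RRS1 and NIFK, while in REXO4 arrays 2 and 4 were slightly lower than arrays 1 and 3. The trio PES1, BOP1 and WDR12, which forms a complex that processes the large subunit RNA, was not called, with 0.044, 0.11 and -0.030 (adjusted p = 0.709, 0.539 and 0.791). NOP2, an RNA methyltransferase, was at -0.042 and the GTPase GNL2 at -0.0070. Of the other factors, NOL9, a kinase that acts on the ends of RNA precursors, was at -0.076, RRP1 at -0.062, the methyltransferase FTSJ3 at -0.049 and NIP7 at -0.041. RRP8, MRTO4, RRP1B and NOP16 were positive, at 0.047, 0.049, 0.097 and 0.098, and NOL8 was at 0.021. NOP53 averaged -0.022 although its arrays stood at -0.40, 0.055, 0.062 and 0.20, and RRP1B was as widely spread, at 0.55, -0.18, 0.14 and -0.13. None of these passed, and in NOP53 and RRP1B array 1 was the farthest from 0. The median of the 19 was -0.030, with 12 negative and 7 positive.

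Of 6 genes of snoRNP core proteins, NOP56 was called in the shared component. NOP56, a scaffold of the snoRNPs that guide RNA methylation, stood at -0.36, -0.15, -0.56 and -0.044. The mean was -0.28 ± 0.23 (SD, n = 4; adjusted p = 0.0216). All arrays were negative, but arrays 1 and 3 lay far below arrays 2 and 4, and its alternating component of -0.18 did not pass (adjusted p = 0.0736). DKC1, the enzyme that makes pseudouridine in the other class of snoRNPs, stood at -0.24, -0.20, -0.25 and -0.088, all negative. Its mean of -0.19 ± 0.074 lay just outside the threshold (adjusted p = 0.0527), and it passed in 5 of the 12 alternatives and missed in 7, with an adjusted p between 0.0137 without array 3 and 0.383 without array 2. FBL, the methyltransferase fibrillarin, was at -0.17, 0.069, -0.38 and 0.16, with no common sign (mean -0.081, adjusted p = 0.508). Of DKC1's partners, NOP10 was at -0.015 and NHP2 at 0.036. The median of the 6 was -0.089, and NHP2 alone was positive.

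RPP40, a protein subunit of RNase P, was the called gene among 8 genes of RNase P and RNase MRP. It stood at -0.23, -0.33, -0.13 and -0.35, with a mean of -0.26 ± 0.10 (SD, n = 4; adjusted p = 0.015), and here arrays 2 and 4 were the lower ones. The other subunits did not share its value. RPP14 was positive on all arrays, at 0.077, 0.18, 0.12 and 0.17 (mean 0.14 ± 0.047, adjusted p = 0.138). RPP38 was at 0.096 (adjusted p = 0.369), RPP25 at -0.066, POP7 at -0.043, RPP30 at 0.055, RPP21 at 0.032 and POP5 at 0.016. Of the 8 subunits 5 were positive and the median was 0.024.

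Transcription of the ribosomal RNA genes was represented by 9 genes. None was called in the shared component, where 3.04% of all genes were, and 2 had an unadjusted p under 0.05 in limma. POLR1C, a subunit shared with RNA polymerase III, was the lowest, at -0.28, -0.38, -0.13 and -0.11. Its mean of -0.22 ± 0.13 (SD, n = 4) equalled that of NIFK at 2 decimals, with a wider spread, and did not pass (adjusted p = 0.0819). POLR1H was at -0.13 (adjusted p = 0.331), with array 4 positive. The largest subunit, POLR1A, was at 0.052, and the initiation factors UBTF and RRN3 were at 0.051 and 0.026, none past the threshold. POLR1G, POLR1B and POLR1D, further subunits, were at -0.067, -0.030 and -0.0078. POLR1F averaged -0.060 in this component, and its arrays took opposite signs. The median of the 9 was -0.030, with 6 negative. NPM1, nucleophosmin, an abundant nucleolar chaperone, averaged -0.023 (adjusted p = 0.846). NOL4, which the pattern takes by its name alone, was at -0.026, and the pseudogene RRP7BP at -0.066 (adjusted p = 0.861 and 0.672).

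**Figure D3:**
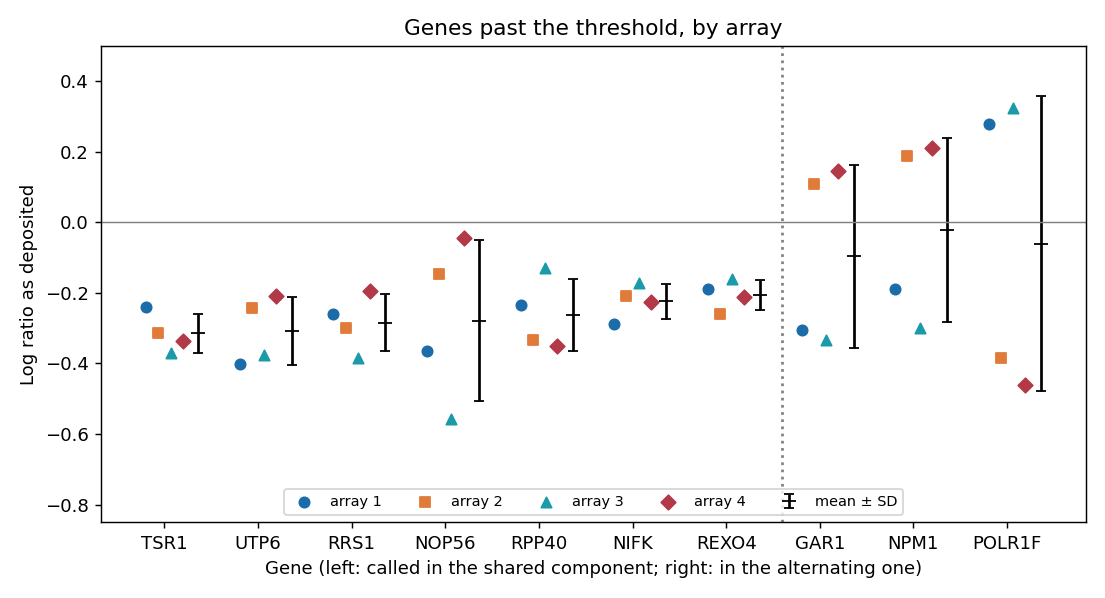
Log ratio (y axis) on each of the 4 arrays, with the mean ± SD as a bar, for the 7 genes called in the shared component (left of the dotted line) and the 3 called in the alternating component (right). The 7 on the left are negative on all arrays, with NOP56 the most widely spread, and the 3 on the right change sign with the dye orientation.

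The number of calls changed when 1 array was left out, among all genes too, and such fits keep 1 residual degree of freedom. The sizes changed less, in part because some settings cannot move them. Leaving out the dye term, robust moderation and array weights left them as they were. So did the other summaries of clones for genes with 1 clone. Over the 12 alternatives NIFK lay between -0.25 and -0.19 and RPP40 between -0.29 and -0.24. REXO4 lay between -0.22 and -0.19 and NOP56 between -0.33 and -0.23. Without array 2 the called genes were TSR1 and UTP6, with 1.43% of all genes called in either direction. Without array 4 they were TSR1, UTP6 and RRS1, with 1.63% of all genes called. Without array 3 there were 15 calls, of which 13 negative, and 11.8% of all genes were then called. Without the dye term, where 1.25% of all genes were called, TSR1, UTP6 and RRS1 passed, while NIFK (adjusted p = 0.0946), RPP40 (0.0908), REXO4 (0.122) and NOP56 (0.296) did not.

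Clones of the same gene give a second look at the called genes. Of the 94 clones 6 were called in the shared component, all negative, where 2.07% of all 26629 probes were called in either direction and 0.946% were called negative. They were the clones of TSR1, UTP6, RRS1 and RPP40 and 1 clone each of NOP56 and RRP15. In limma 0 clones were called positive, where 1 had p under 0.05 before adjustment and 1.12% of all probes were called. REXO4, called over the genes, was not called over the probes (adjusted p = 0.0795). TSR1, UTP6, RRS1, RPP40 and REXO4 have 1 clone each, so their values have no second clone beside them. Both NOP56 clones had a mean of -0.28, but their arrays differed. One stood at -0.37, 0.015, -0.73 and -0.025 (adjusted p = 0.0741 over all probes) and the other at -0.36, -0.31, -0.38 and -0.064 (adjusted p = 0.0401). The 2 NIFK clones, at -0.24 and -0.21, had the same sign on all arrays, and neither passed alone (adjusted p = 0.0803 and 0.0679). RRP15, another large subunit factor, had 1 called clone at -0.25 (adjusted p = 0.0347) and 1 at 0.077 (adjusted p = 0.595), and its mean of -0.087 did not pass. Of 22 genes with 2 or 3 clones, 14 had clone means of 1 sign, 7 of them negative, and 8 had mixed signs. Clones of RRP7A and its pseudogene RRP7BP, and of UTP14A and its retrocopy UTP14C, may bind each other's RNA, and their values are uncertain for that reason.

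**Figure D4:**
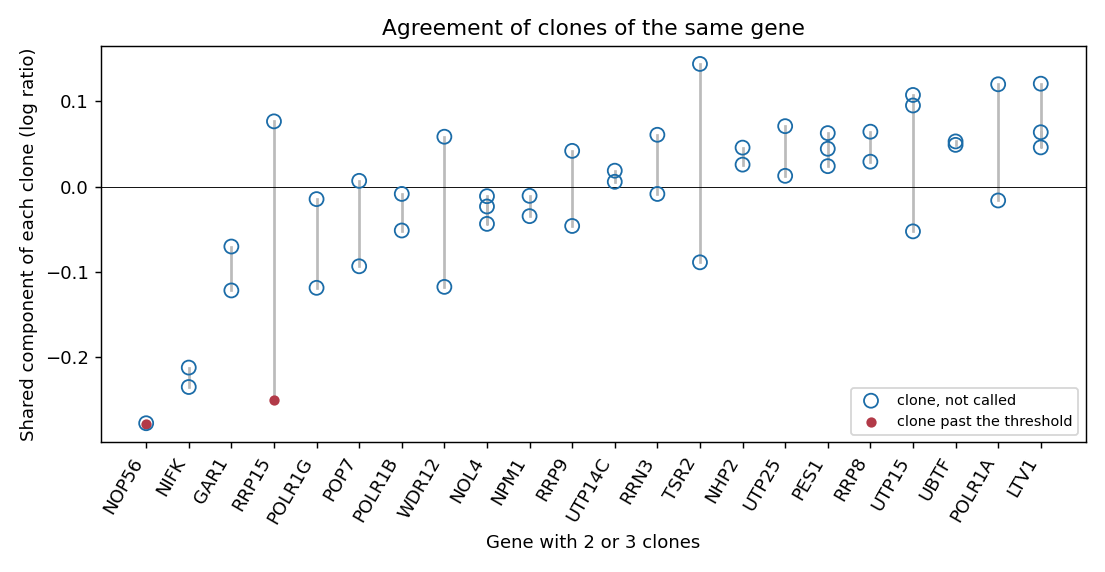
Shared component (y axis, log ratio) of each clone of the 22 genes with 2 or 3 clones, joined by a line and ordered by gene mean. Filled points are clones past the threshold. The clones of NOP56 and NIFK lie close together, while those of RRP15 lie at -0.25 and 0.077.

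In the alternating component 3 of the 68 genes were called (4.41%, against 3.29% of all genes), a share near that of the whole array. Of these 1 was positive, against 1.9% of all genes, and 2 were negative, against 1.39%. With no adjustment 18 genes had p under 0.05 (26.5%, against 25.6% of all genes). POLR1F, a subunit of RNA polymerase I, was positive, at 0.28 and 0.32 on arrays 1 and 3 and -0.38 and -0.46 on arrays 2 and 4. Its alternating component was 0.36 (adjusted p = 0.0166). GAR1, a partner of DKC1, was at -0.31 and -0.33 on arrays 1 and 3 and 0.11 and 0.15 on arrays 2 and 4 (-0.22, adjusted p = 0.0347). NPM1 was at -0.19 and -0.30 on arrays 1 and 3 and 0.19 and 0.21 on arrays 2 and 4 (-0.22, adjusted p = 0.0395). In all 3 the 2 orientations did not overlap, which a call in this component selects for. No gene called in the shared component was called here, where 3.29% of all genes were. For GAR1 and NPM1 1 of 2 clones passed, at -0.29 and -0.24, and the other clone had the same sign, at -0.15 and -0.20. Over the 94 clones 3 were called in this component, against 4.28% of all probes. They were 1 positive clone, against 2.81%, and 2 negative ones, against 1.48%. FBL, at -0.19, did not pass (adjusted p = 0.0668). Fitted alone, this component gave 0 calls among the 68 in limma, where 13 had p under 0.05 before adjustment, and without array 2 or without array 4 POLR1F alone passed.

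Of the 68 genes 14 were negative on arrays 1 and 3 and positive on arrays 2 and 4 (20.6%, against 14.8% of all genes), among them GAR1, NPM1 and FBL. The opposite pattern was found for 5 (7.35%, against 13.4% of all genes), among them POLR1F. As a description over these 68 genes, which share arrays and dyes, Pearson r was 0.48 between arrays 1 and 3 and 0.60 between arrays 2 and 4. Between arrays of opposite orientation it lay between -0.074 and 0.11. Over all probes r was 0.43 between arrays 1 and 3 and 0.56 between arrays 2 and 4. Across orientations it lay between -0.16 and 0.055 there, so the pattern is not particular to these genes.

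**Figure D5:**
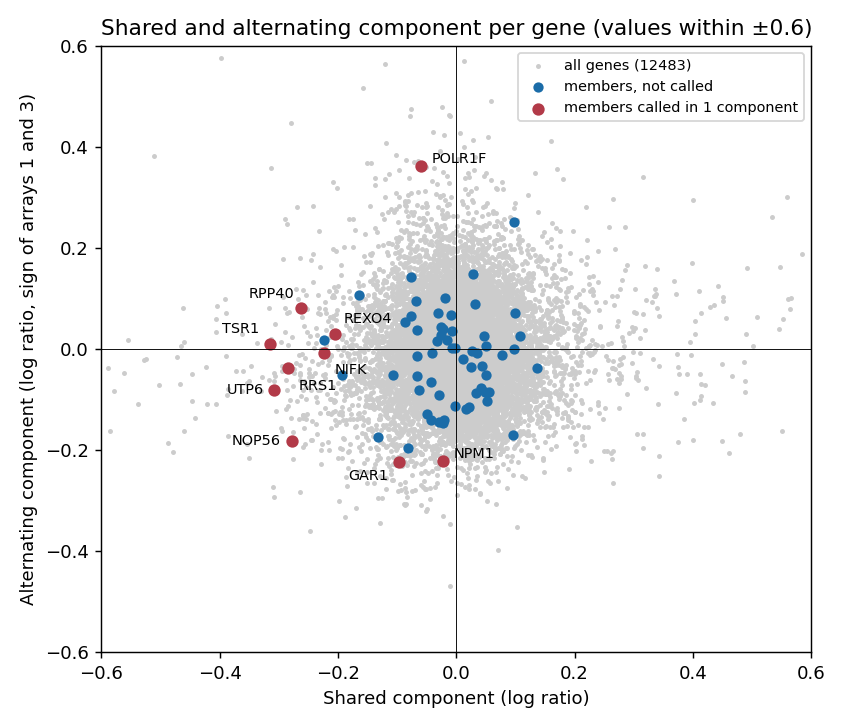
Shared component (x axis) against alternating component (y axis) for each gene, as log ratios within 0.6 of 0, with the genes of ribosome assembly over all genes in grey. The 7 genes called in the shared component lie on the left near the horizontal axis, apart from NOP56 at -0.18, and POLR1F, GAR1 and NPM1 lie along the vertical axis.

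Of the letter patterns searched in the promoters, the E-box CACGTG was the shortest. It was the most frequent in this group of genes, as it was among all measured genes. MYC and its partner MAX are known to bind to it. RefSeq windows (GRCh38.p14) from 250 bases before to 50 bases after the start were matched for 62 of the 68 genes. The E-box, which reads the same on both strands, lay in 19 of the 62 windows (30.6%), against 9.01% of the 10084 windows of measured genes. None of the 6 called genes with a window held it. The 19 genes with an E-box had a median of -0.015 in the shared component and 0 calls. The 43 without it had a median of -0.026 and 6 calls. Among all measured genes with a window, 34 of 909 with the E-box were called in this component, and 277 of 9175 without it. Over all measured genes calls were thus few with or without the E-box. In the group itself all 6 calls fell on the 43 genes without it, and 19 genes are too few to show a lower share. A link between the E-box and the calls was not tested. CCGGAAGT, a site of ETS factors, lay on either strand in 6 of 62 windows (9.68%, against 6.64%), GAR1 among them, and in 0 of the 6 called genes. A match is only a run of letters, and its absence says nothing of a factor. The windows of TSR1, UTP6 and NOP56 are shown for the called genes. Those of UTP18 and BYSL, the lowest and the highest of the 19 genes with an E-box, carry it in capitals.
TSR1 (chr17:2336408-2336707, minus strand): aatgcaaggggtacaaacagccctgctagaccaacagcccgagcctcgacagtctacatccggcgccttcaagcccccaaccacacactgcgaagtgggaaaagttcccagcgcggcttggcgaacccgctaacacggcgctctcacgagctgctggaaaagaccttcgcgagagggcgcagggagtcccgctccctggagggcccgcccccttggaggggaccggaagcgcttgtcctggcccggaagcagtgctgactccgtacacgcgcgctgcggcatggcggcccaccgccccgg
UTP6 (chr17:31901659-31901958, minus strand): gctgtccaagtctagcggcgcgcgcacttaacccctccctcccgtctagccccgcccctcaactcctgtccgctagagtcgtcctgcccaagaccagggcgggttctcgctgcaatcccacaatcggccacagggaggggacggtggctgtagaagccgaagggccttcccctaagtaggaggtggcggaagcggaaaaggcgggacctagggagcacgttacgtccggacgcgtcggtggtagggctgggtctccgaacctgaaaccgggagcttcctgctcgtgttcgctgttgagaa
NOP56 (chr20:2652382-2652681, plus strand): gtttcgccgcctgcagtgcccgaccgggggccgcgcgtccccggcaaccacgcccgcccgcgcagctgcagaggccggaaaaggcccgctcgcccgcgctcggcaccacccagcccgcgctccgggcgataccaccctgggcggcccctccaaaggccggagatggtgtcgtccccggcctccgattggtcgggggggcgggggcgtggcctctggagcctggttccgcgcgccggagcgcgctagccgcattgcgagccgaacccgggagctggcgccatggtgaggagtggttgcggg
UTP18 (chr17:51260296-51260595, plus strand): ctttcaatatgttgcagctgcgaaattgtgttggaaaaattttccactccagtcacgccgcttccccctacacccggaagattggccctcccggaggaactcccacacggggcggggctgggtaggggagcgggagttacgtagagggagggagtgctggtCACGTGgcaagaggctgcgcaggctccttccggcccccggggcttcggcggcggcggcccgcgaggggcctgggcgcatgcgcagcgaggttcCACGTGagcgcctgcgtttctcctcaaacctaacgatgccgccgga
BYSL (chr6:41921249-41921548, plus strand): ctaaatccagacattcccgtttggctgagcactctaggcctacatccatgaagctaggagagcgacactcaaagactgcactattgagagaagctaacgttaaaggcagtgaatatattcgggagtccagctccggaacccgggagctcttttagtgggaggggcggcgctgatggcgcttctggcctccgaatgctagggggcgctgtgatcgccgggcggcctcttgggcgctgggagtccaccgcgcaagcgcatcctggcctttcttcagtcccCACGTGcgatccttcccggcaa

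Read beside these windows, UTP18 held 2 E-boxes and BYSL 1, and neither gene was called. The lower-case windows of TSR1, UTP6 and NOP56 held none of the patterns searched.

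Other genes of the pathway, from lists outside the rule, showed no sign common to all lists in the shared component, to which the following counts refer. There 3.04% of all genes were called, and at that share lists this short can hold few or no calls. Of 6 further factors of ribosomal RNA transcription TTF1, which ends transcription by RNA polymerase I, was called. It stood at -0.26, -0.29, -0.45 and -0.23 (mean -0.31 ± 0.099, SD, n = 4; adjusted p = 0.0133), and the median of the 6 was -0.036. In this list 5 of 6 genes were negative (83.3%, against 45.8% of all genes). Of 22 other large subunit factors RSL24D1, which holds the place of a ribosomal protein during assembly, was called with a positive value. It stood at 0.061, 0.38, 0.46 and 0.33 (mean 0.31 ± 0.17, adjusted p = 0.0478), but the call ended in 4 of the 12 alternatives, with median centring (adjusted p = 0.0599), without the dye term (0.12), without array 2 (0.161) and without array 4 (0.115). In the shared component no gene was called among 17 other small subunit factors, 10 nucleolar helicases and 7 genes of the RNA exosome, which had medians of 0.014, 0.0086 and 0.0042. Before adjustment 2, 2 and 1 of them had p under 0.05 in limma. Of 16 genes of RNA polymerase III, POLR3K was called (0.26, adjusted p = 0.0299), at 0.086, 0.37, 0.0042 and 0.59.

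The 42 ribosomal proteins, the load of the assembly line, had 3 positive and 3 negative calls in the shared component, where 1.63% of all genes were called positive and 1.41% negative, and a median of 0.0087. RPL7A was at -0.59, -0.35, -0.57 and -0.26 over its 3 clones (mean -0.44 ± 0.16, SD, n = 4; adjusted p = 0.000912). RPL21, at 0.26, 0.29, 0.28 and 0.21, and RPL13A, at 0.30, 0.20, 0.45 and 0.14, were positive on all arrays (adjusted p = 0.0141 and 0.0161). The calls of RPL21 and RPL13A were lost without array 2 (adjusted p = 0.119 and 0.107) and without array 4 (0.0556 and 0.0665). The call of RPL13A was also lost without the dye term (adjusted p = 0.12). That of TTF1 was lost without array 2 (0.0753), and that of POLR3K without array 4 (0.202) and without the dye term (0.436), while RPL7A was called in every setting run. MYC itself was at -0.092, -0.0064, -0.31 and -0.040, and its mean of -0.11 ± 0.14 did not pass (adjusted p = 0.333). None of the 6 measured genes of the MYC network was called, where 3.04% of all genes were. Before adjustment 2 of the 6 had p under 0.05 in limma.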

How the data were processed

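RNA of let-7a-3 transfected and parental A549 cultures was compared on 4 two-colour cDNA arrays. The authors used ArrayMagic with VSN, a variance-stabilizing normalization, as the series' design text states. The deposited values are 1 log ratio per probe and array for 26629 probes. No source names software versions or spot filters, and without intensities no background correction or dim-probe filter could be tried. VSN compresses ratios of dim spots. Names came from the platform annotation, and all 68 genes matched the GRCh38.p14 gene table. Clones of a symbol were averaged, and limma 3.58.1 (R 4.3.3) fitted a shared and an alternating coefficient, with 2 residual degrees of freedom and 5.89 added by moderation. All p-values are two-sided, and Benjamini-Hochberg adjustment covered all genes or probes. The SD covers 4 arrays and holds the dye part too, and their number limits the precision. The design text calls the replicates separate cultures.

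Named genes are those called in either component, the 3 with the largest statistic per role, genes with a called clone, and NPM1, FBL, UBTF, DKC1, POLR1A and MYC. Up to 3 called genes of each list outside the rule follow. Other genes are mentioned to complete their role. The members and lists were chosen with earlier results of these data known. The fit was tested on simulated data. Alternatives were median centring, quantile normalization, equal scale, 1 coefficient, robust moderation, array weights, 2 other summaries of clones, and leaving out each array. Figures were drawn with matplotlib 3.10.9.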

Additional observations from a re-analysis of the deposited data

Results flagged for a closer look

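GAR1 (-0.22), NPM1 (-0.22) and POLR1F (0.36) differed between the dye orientations, as the alternating component was called in limma (adjusted p = 0.0347, 0.0395 and 0.0166). Each had 1 sign on arrays 1 and 3 and the other on arrays 2 and 4. In none of the 29 genes named by the rule, 22 of them members, did 1 array stand apart from the other 3 by Dixon's ratio.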

How the results depend on the processing

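In the shared component 7 genes were called, and 7 or 8 under median centring, quantile normalization, equal scale, robust moderation, array weights and the 2 other summaries of clones. With the shared coefficient alone 3 were called (1.25% of all genes), and leaving out 1 array gave 2 to 15, over 1.43% to 11.8% of all genes. In the alternating component 3 were called, 0 with that coefficient alone (limma, with 13 at an unadjusted p under 0.05) and 7 with the clone of largest statistic, a choice by which 14.3% of all genes were called. Leaving out 1 array gave 1 to 11, over 0.312% to 18.4% of all genes. Fits on 3 arrays keep 1 residual degree of freedom and assume that the lone array of an orientation varies like the others. The cause of these changes was not tested. The median of the 68 genes stayed between -0.034 and -0.020 in the settings run, leave-one-out included. With 1 coefficient or with array weights it stayed at -0.023, as these settings left the sizes unchanged. Of 696 values of named genes under alternatives 32 lost and 26 gained a call, and 17 changed sign, none of them called and all within 0.066 of 0 in the reported fit. Each ratio already sets 1 transfected culture beside 1 parental culture on the same array, so no further pairing was made. Intensities are not in the table used here, so signal over background could not be weighed.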

Other observations

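Among genes of the pathway outside the rule, the alternating component was called with a negative value for the assembly factors EIF6 (-0.23, adjusted p = 0.0376), PA2G4 (-0.35, adjusted p = 0.0236), NGDN (-0.23, adjusted p = 0.0419) and KRR1 (-0.19, adjusted p = 0.0475). It was also negative for BAZ2A, a subunit of a complex that silences ribosomal RNA genes (-0.29, adjusted p = 0.0418), and for the ribosomal proteins RPL6 (-0.25), RPL10 (-0.21) and RPS19 (-0.20). GTF3C6, from the list of RNA polymerase III genes, was called negative too (-0.25, adjusted p = 0.0299). In this component 1.39% of all genes were called negative and 1.9% positive. The helicase DDX31 was positive (0.26, adjusted p = 0.0269). These genes were picked after their values were seen. Of the 42 ribosomal proteins 12 were negative and 4 positive at an unadjusted p under 0.05 in limma in this component (38.1% in all, against 25.6% of all genes, of which 1710 were negative and 1487 positive), and the median was -0.045, against -0.0081 for all genes.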
